A study of Mus musculus with 9 samples.

Results

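The expression of 10 genes for channels that open under mechanical load, or that belong to the same families, was followed in mouse cells prepared as Müller glia, the glial cells that span the retina. They were picked by symbol: Trpv4, Trpv2, Piezo1, Piezo2, Trpm7, Trpm4, Trpm3, Trpc1, Pkd2 and Kcnk2. All 10 were listed in both deposited tables, which together hold 17964 genes (16367 for sorted cells and 17035 for cultures). RNA-seq was made in 9 libraries, 3 in each of 3 groups, all from wild-type mice. Sorted cells came from sham-operated eyes, which had a corneal cut only, and from eyes with ocular hypertension (OHT), in which 1.2 µL of silicone oil was left in the anterior chamber of both eyes to raise the pressure. Each sorted library was made from a pool of 4 retinas, taken off the pigment epithelium, dissociated with papain, depleted of dead cells and captured on magnetic beads through GLAST, a glutamate transporter of Müller glia and also of astrocytes. The third group was untreated primary culture from C57BL/6J pups 8 to 10 days old, grown and passaged on gelatin in medium with serum. The sources used here give neither the age of the operated mice nor the time after the injection. The labels do not say whether the pools came from separate operations or the cultures from separate litters, so p-values measure only the spread between these samples.

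Mechanosensitive channels turn stretch, swelling or flow at the cell surface into ion currents. The Piezo proteins are opened by tension in the membrane itself, whereas many TRP channels answer to several inputs, among them swelling, temperature, lipids and intracellular calcium. TRPV4 is a calcium-permeable channel of Müller glia that opens when these cells swell, and calcium entering through such channels acts on calmodulin, calcineurin and calcium-activated potassium channels.

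Recovered depth was 37.8 to 53.6 M reads (1e6 reads) in the sorted libraries and 66.3 to 76.7 M in the cultures, so that 1 read is worth 0.0130 to 0.0264 reads per 1e6 reads (ppm). The labelled cell type was checked against marker genes. In sorted libraries 12 Müller glia markers summed to 4085 to 10004 ppm in sham and 2173 to 5050 ppm in OHT, and 12 microglia and macrophage markers to 29587 to 47677 ppm and 44919 to 53576 ppm. Rod markers summed to 2720 to 25537 ppm in sham and 936 to 3406 ppm in OHT. The 8 astrocyte markers summed to 72.6 to 1315 ppm in sham, where Gfap alone was at 3.99 to 1121 ppm, and to 93.8 to 190 ppm in OHT. In cultures the Müller glia list was at 1045 to 1260 ppm, of which Prdx6, an antioxidant enzyme of many cell types, made up 650.1 to 747 ppm, while Rlbp1, the retinaldehyde-binding protein of Müller glia, was at 1.60 to 2.84 ppm against 389 to 2090 ppm in sorted libraries. Markers of mural cells and fibroblasts summed to 16225 to 19178 ppm in cultures, mainly Acta2, the smooth muscle actin, and Col1a1, a fibrillar collagen, against 119 to 264 ppm in sham and 10.1 to 55.8 ppm in OHT. Endothelial markers summed to 229 to 506 ppm in sham and 117 to 208 ppm in OHT, so that both sums were lower in every OHT library than in any sham library. The mural cell and fibroblast sum in sham was mostly Rgs5 (101.5, 187 and 226 ppm, against 29.4, 4.85 and 19.8 ppm in OHT). Kcnj8 of that list was higher in OHT replicate 1 (15.3 ppm) than in any sham library. The endothelial sum was mostly Kdr and Flt1, and Pecam1 in sham replicate 3 (1.87 ppm) was below every OHT library. In each sorted library 8 of 8 endothelial markers and at least 7 of 10 mural cell and fibroblast markers were above 0. The groups are therefore called sorted cells and cultures here. In such bulk RNA, fewer cells of a type and less RNA per cell cannot be told apart.

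Among the 10 channels, Trpv2 and Trpm3 had the highest levels per length of the longest transcript in sorted cells, and Piezo2 and Kcnk2 were at or near 0. Levels between genes are given in ppm per kilobase of the longest transcript. In sham the means ran from Trpv2 (14.6) and Trpm3 (13.2) through Trpm7 (3.82), Trpv4 (3.32), Pkd2 (2.28), Trpm4 (1.45), Trpc1 (1.33) and Piezo1 (0.909) to Kcnk2 (0.0219) and Piezo2 (0). Only 2 pairs of neighbours in this order did not overlap over the 3 sham libraries: Trpm3 lay above Trpm7, and Piezo1 above Kcnk2. In OHT the order was Trpv2 (15.7), Trpm3 (6.66), Trpv4 (4.22), Trpm7 (4.22), Pkd2 (1.64), Trpm4 (1.48), Trpc1 (0.516), Piezo1 (0.326), Piezo2 (0.00791) and Kcnk2 (0). There the neighbours without overlap were Trpv2 above Trpm3, Trpm7 above Pkd2, and Piezo1 above Piezo2. Trpv4 stood between the 40.7 and 69.4 percentile of all genes by level per kilobase in the 6 sorted libraries, and Trpv2 between 75.7 and 84.4. The order rests on the length taken for a gene: with the median transcript length in place of the longest, Trpm7 moved from rank 3 to rank 2 in sham and from rank 4 to rank 1 in OHT. By that length Trpv2 was at rank 3 in sham and 2 in OHT, and Trpm3 at rank 1 in sham and 3 in OHT.

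**Figure D1:**
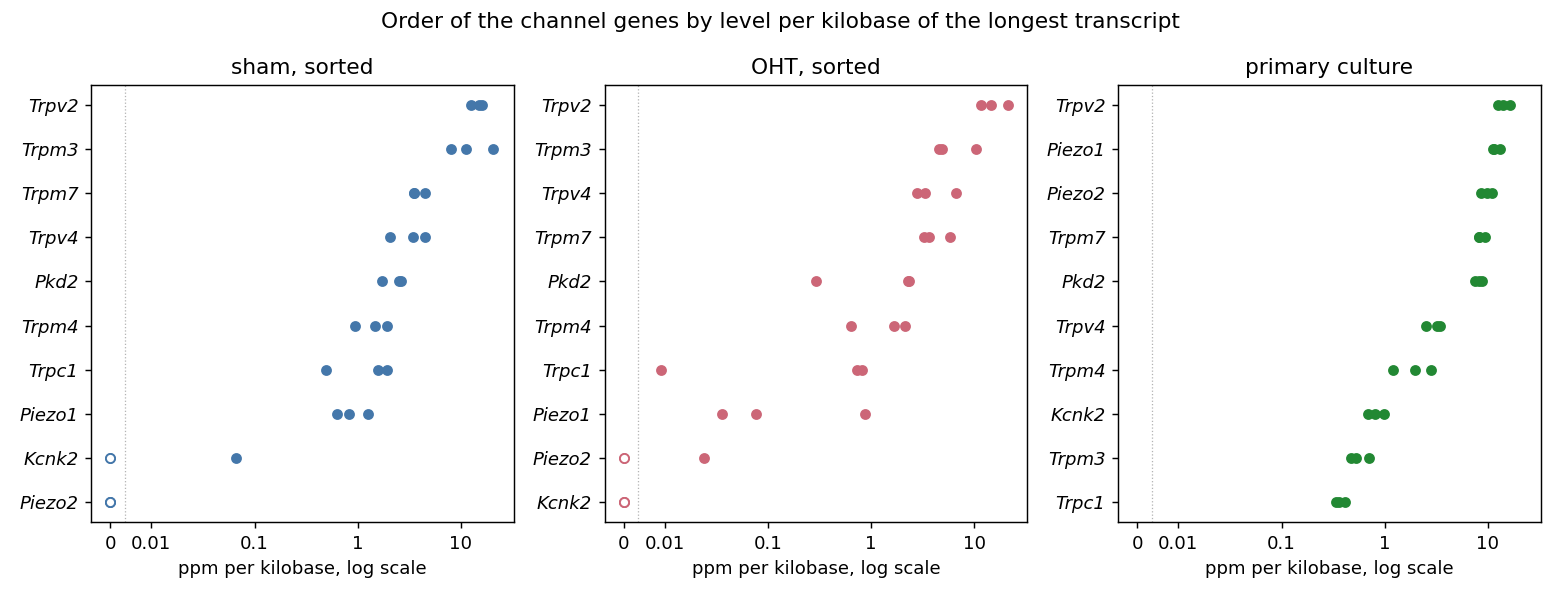
Level per kilobase of the longest transcript (ppm per kilobase, log scale, with 0 set apart as open points) for the 10 channel genes in sham, OHT and culture libraries, 1 point per library, ordered by the group mean. By this length Trpv2 is first in every group, while Piezo1 and Piezo2 stand at ranks 8 and 10 in sham and 2 and 3 in culture. By the median transcript length Trpv2 is first in none of the groups.

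The comparison of OHT with sham sorted cells asked whether raised eye pressure goes with a change in the RNA of these channels. None of the 8 channels with enough reads to be tested passed the test. limma called 0 of 8 at an adjusted p under 0.05, with a smallest adjusted p of 0.438, beside a background of 0% of 14403 genes. It also gave 0 of 8 at an unadjusted p under 0.05, where the background over all genes was 11.7%. On recovered reads edgeR called 0 of 8, with a background of 0%, and DESeq2 called 0 of 8, with a background of 1.80% of 13893 genes. No channel had all OHT libraries above all sham libraries (background 9.26%) or all below (9.18%). Of the 8 log2 differences 4 were positive and 4 negative, with a median of -0.26 beside -0.12 over all genes. Exact permutation p-values for single genes, two-sided, cannot go under 0.1 with 3 libraries against 3.

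Trpv4 was at 564, 261 and 471 normalised counts in the sham libraries and at 1398, 470 and 340 in the OHT libraries. OHT replicate 1 was high, and the other OHT libraries lay within the sham range. As a share of all reads OHT replicate 1 was at 21.3 ppm, against 6.64 to 14.4 ppm in sham. The log2 difference was 0.56 (SE 0.65), with a 95% interval of -0.85 to 1.98. Its limma adjusted p was 0.717 and its exact permutation p 0.6. It was -0.04 without OHT replicate 1, -0.16 with the mean of the rod markers as a covariate and -0.36 with that of the microglia markers. In OHT the rod and Müller glia marker sums were lower and the microglia marker sum higher in the mean, with ranges that overlap those of sham. The astrocyte sum was also lower in the mean (128 ppm against 736 ppm in sham), with all OHT values inside the sham range. The endothelial and the mural cell and fibroblast sums were lower without overlap, though not every gene of these lists was. The part of these sums in the differences of the channels was not tested beyond the covariate fits.

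Trpv2, a relative of Trpv4 that is stretch sensitive in muscle and abundant in macrophages, was at 2319, 2181 and 1961 in sham and 3472, 3419 and 1614 in OHT. In OHT 2 libraries were above the sham range and 1 below it. The log2 difference was 0.32 (SE 0.39; exact permutation p 0.4; limma adjusted p 0.739), and it turned to -0.14 with the rod covariate and -0.07 with the microglia covariate. As a share of all reads only OHT replicate 2, at 77.5 ppm, exceeded the sham libraries (46.1 to 59.4 ppm).

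Piezo1, the membrane tension channel of many non-neuronal tissues, had the lowest estimate. It was at 406, 204 and 291 normalised counts in sham and 41.5, 314 and 11.2 in OHT, from 393, 221 and 304 reads and from 30, 381 and 14 reads. OHT replicates 1 and 3 were below every sham library, and OHT replicate 2 was within the sham range. The log2 difference of -2.41 (SE 1.13, 95% interval -4.89 to 0.08) had a limma unadjusted p of 0.0566 and an adjusted p of 0.438, with an exact permutation p of 0.3. It stayed negative in each of 18 alternative settings, from -4.18 with the rod covariate to -1.30 with DESeq2, and its smallest adjusted p was 0.211, in limma without OHT replicate 2. The SD of Piezo1 on the log2 scale was 0.50 in sham and 2.36 in OHT, against medians of 0.44 and 0.90 over all genes. Piezo2, its relative of touch and stretch sensing neurons, had no read in 5 sorted libraries and 12 reads in OHT replicate 3. In the pooled sham libraries a count of 0 allows up to 0.0240 ppm by the limit of 3 reads. This limit takes in counting error alone, as the cDNA was amplified and the reads carry no molecular identifiers.

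**Figure D2:**
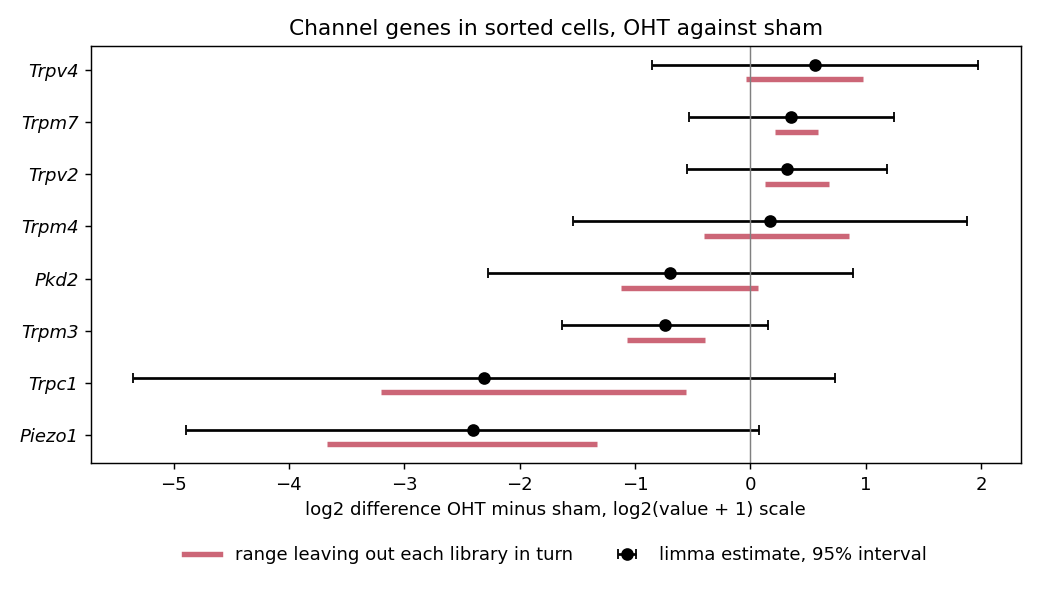
Log2 difference of OHT minus sham for the 8 channel genes tested, on the log2(value + 1) scale, with the limma estimate and its 95% interval (black) and the range of the estimate when each library is left out in turn (red). All 8 intervals hold 0, and the ranges of Trpv4, Trpm4 and Pkd2 cross 0.

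Of the TRPM channels, Trpm3 had the lowest estimate. Its protein is a calcium-permeable channel opened by heat and neurosteroids. Trpm3 was at 3881, 9835 and 5877 in sham and 3700, 2660 and 4880 in OHT. OHT replicates 1 and 2 were below all sham libraries, OHT replicate 3 was within their range, and sham replicate 2 was the highest of the 6. The log2 difference was -0.74 (SE 0.41; exact permutation p 0.2; limma unadjusted p 0.0951, adjusted p 0.490), and it was 0.15 with the rod covariate. Trpm7, a channel for magnesium and calcium with a kinase domain, was at 1243, 973 and 1055 in sham and 1690, 1010 and 1565 in OHT. OHT replicates 1 and 3 were above the sham range, and the log2 difference of 0.35 (SE 0.41; exact permutation p 0.3; limma adjusted p 0.716) was positive in all 18 alternatives, from 0.17 to 0.58. As a share of all reads only OHT replicate 3, at 41.4 ppm, exceeded the sham libraries (24.7 to 31.8 ppm), and OHT replicate 2, at 22.9 ppm, was below them. Trpm4, a sodium channel opened by intracellular calcium, was at 325, 160.5 and 269 in sham and 599.7, 319 and 104 in OHT. OHT replicate 1 was above the sham range and OHT replicate 3 below it, with a log2 difference of 0.17 (SE 0.78; exact permutation p 0.9; limma adjusted p 0.934). This estimate lay between -0.40 and 0.86 when single libraries were left out, and at -0.84 with either marker covariate. In ppm Trpm4 was at 9.11 in OHT replicate 1 and 2.76 in OHT replicate 3, against 4.08 to 8.33 in sham.

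Trpc1, a subunit of channels linked to store depletion and stretch, was at 87.8, 343 and 307 in sham and 2.76, 147 and 139 in OHT, where OHT replicate 1 held 2 reads. That library alone was below the sham range. The log2 difference was -2.31 (SE 1.39; exact permutation p 0.3; limma adjusted p 0.519), was -0.55 without OHT replicate 1, and was 0.25 with the microglia covariate. On recovered reads the Trpc1 difference was -1.40 in edgeR and -1.35 in DESeq2. Pkd2, the polycystin channel of cilia and the endoplasmic reticulum, was at 535, 351 and 555 in sham and 101, 526 and 462 in OHT. Again OHT replicate 1 alone was below the sham range, with a log2 difference of -0.69 (SE 0.72; exact permutation p 0.5; limma adjusted p 0.695) that was 0.07 without that library and 0.02 with the microglia covariate. Kcnk2, the TREK-1 potassium channel that opens under stretch, had 10 reads in sham replicate 2 and none in the other 5 sorted libraries. Piezo2 and Kcnk2 were below the mean of 10 normalised counts required for the test.

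How the channels varied over the 6 sorted libraries was set beside the marker sums, as a description chosen after the values were seen. Trpm3 was at 99.3, 250 and 138 ppm in sham and 56.2, 60.3 and 129 ppm in OHT, a range of 4.45-fold. Per 1000 ppm of summed Müller glia markers it was at 23.4, 24.99 and 33.8 in sham and at 24.1, 27.7 and 25.6 in OHT, and the 3 OHT values lay within the sham range. This ratio spanned 1.45-fold, the narrowest of 24 ratios computed (8 channels by Müller glia, microglia and rod lists). Pearson's r of Trpm3 with the summed Müller glia markers was 0.956 (Spearman's rho 0.943), with the summed rod markers 0.913 (rho 1) and with the summed endothelial markers 0.891 (rho 0.829), over 6 libraries. Every r and rho here was taken on log2(value + 1) of the normalised counts, and r on ppm was not computed. In ppm the libraries ran in the same order in Trpm3 and the rod sum, but not in Trpm3 and the Müller glia sum. Sham replicate 3 was above OHT replicate 3 in Trpm3 (138 against 129 ppm) and below it in the Müller glia sum (4085 against 5050 ppm). OHT replicate 1 had the largest scaling, 1.38 normalised counts per read against 0.801 to 1.03 in the other sorted libraries. Both sides of each r share this factor. All points of such a correlation share library, depth and amplification, and sham replicate 2 was the highest in Trpm3 and in the Müller glia sum. Trpv4 had r of -0.51 with the Müller glia sum and 0.883 with the microglia and macrophage sum (rho 0.543). Per 1000 ppm of the latter it was at 0.303, 0.207 and 0.374 in sham and 0.397, 0.235 and 0.200 in OHT. Trpv2, Trpm7 and Trpm4 also had positive r with the microglia sum (0.712, 0.710 and 0.696), whereas Trpc1 had -0.959 and Pkd2 -0.771. Piezo1 had -0.09 with the Müller glia sum and -0.35 with the microglia sum. Whether the marker RNA accounts for any of these levels was not tested.

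**Figure D3:**
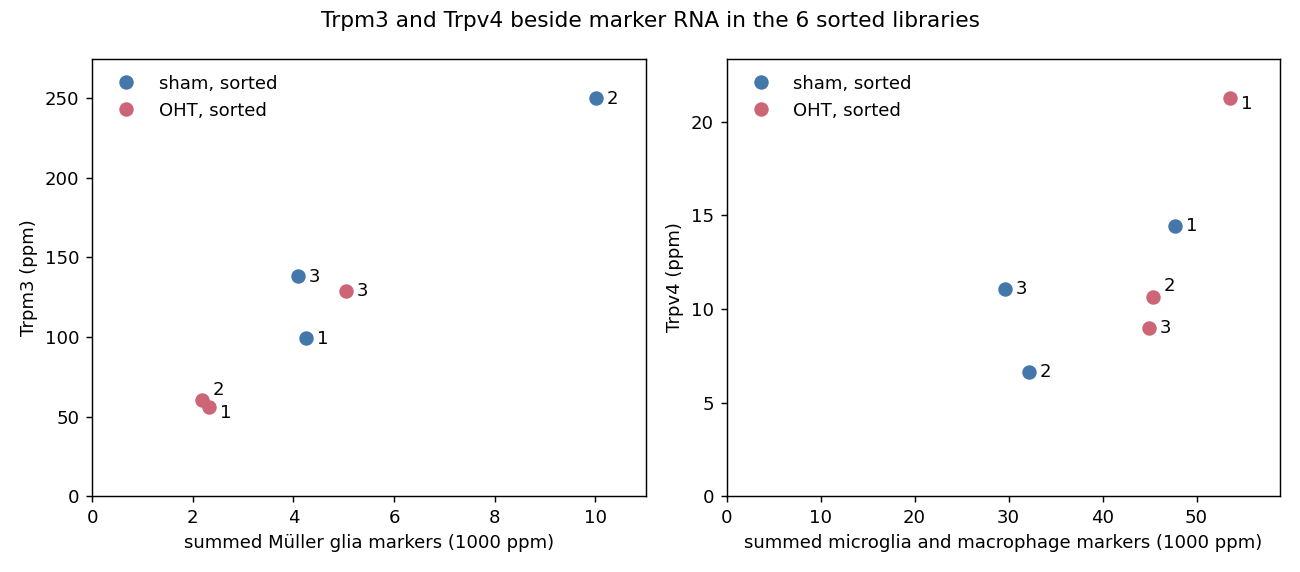
Trpm3 against summed Müller glia markers (left) and Trpv4 against summed microglia and macrophage markers (right), in ppm, with 1 point per sorted library and its replicate number. Trpm3 spans 56.2 to 250 ppm and is mostly higher at a higher Müller glia sum, though not in strict order. The highest Trpv4 point, OHT replicate 1 at 21.3 ppm, is also the highest in microglia marker RNA.

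In cultures the Piezo genes were higher than in sorted cells, Trpm3 was lower, and Trpv4 and Trpv2 overlapped between them. The tables were normalised separately and the groups differ in preparation and makeup at once, so these levels are in ppm and carry no test. Higher in all 3 cultures than in all 6 sorted libraries were 5 of 10 channels (Piezo1, Piezo2, Trpm7, Pkd2 and Kcnk2), where the background was 32.5% of 15438 genes. Lower in all cultures was 1 of 10 (Trpm3), where the background was 16.5%.

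Piezo1 was at 92.8, 107 and 93.8 ppm in the cultures, against 5.18 to 10.4 ppm in sham and 0.297 to 7.11 ppm in OHT. The culture mean was 13.1-fold the sham mean, and the lowest culture was 8.93-fold the highest sorted library. Piezo2 was at 91.3, 117 and 105 ppm in the cultures, from 6053, 8834 and 8036 reads. Its lowest culture was 359-fold the highest sorted library, OHT replicate 3 at 0.255 ppm. Sham had no Piezo2 read, and the culture mean was 4342-fold the limit of 3 reads over the pooled sham libraries. By the longest transcripts Piezo1 and Piezo2 were at ranks 8 and 10 in sham and at ranks 2 and 3 in culture (11.9 and 9.72 ppm per kilobase), next to Trpv2 at 14.4. Piezo1 lay above Piezo2 in the cultures without overlap, on the longest transcripts. By median lengths Piezo1 was at rank 5 in sham, and the culture order began with Trpm7 (54.7), Piezo2 (35.2), Piezo1 (34.3) and Trpv2 (19.9 ppm per kilobase).

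Trpm7 was at 58.4, 67.3 and 58.6 ppm in the cultures and at 22.9 to 41.4 ppm in sorted libraries. Pkd2 was at 39.4, 46.2 and 42.6 ppm against 1.53 to 13.7 ppm, a culture mean 3.59-fold the sham mean. Kcnk2 was at 3.53, 2.88 and 2.49 ppm and no higher than 0.235 ppm in any sorted library, and its lowest culture was 10.6-fold the highest sorted library. Trpm3 moved the other way, to 6.44, 5.76 and 8.76 ppm from 56.2 to 250 ppm, a sham mean 23.3-fold the culture mean. Per 1000 ppm of the Müller glia markers Trpm3 was at 6.16, 5.37 and 6.95 in the cultures, below the 23.4 to 33.8 of sorted libraries. In the cultures most of that marker sum was Prdx6 (712, 650.1 and 747 ppm) and Dkk3 (162, 214 and 269 ppm), while Rlbp1 was at 1.60 to 2.84 ppm. The ratio therefore does not give Trpm3 per Müller glia RNA there, and a ratio without these 2 genes was not computed. Trpv4 (8.14, 10.3 and 11.0 ppm) and Trpv2 (59.8, 52.1 and 46.5 ppm) lay within the range of the sorted libraries. Trpm4 (5.16, 12.03 and 8.51 ppm) overlapped that range of 2.76 to 9.11 ppm, with 1 culture above it. Trpc1, at 1.66, 1.86 and 1.55 ppm, was below every sorted library except OHT replicate 1. The summed mural cell and fibroblast markers were also higher in every culture, although Rgs5 and Kcnj8, pericyte genes of that list, were lower in every culture than in any sorted library. The part of such RNA in the levels of the Piezo genes was not tested.

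**Figure D4:**
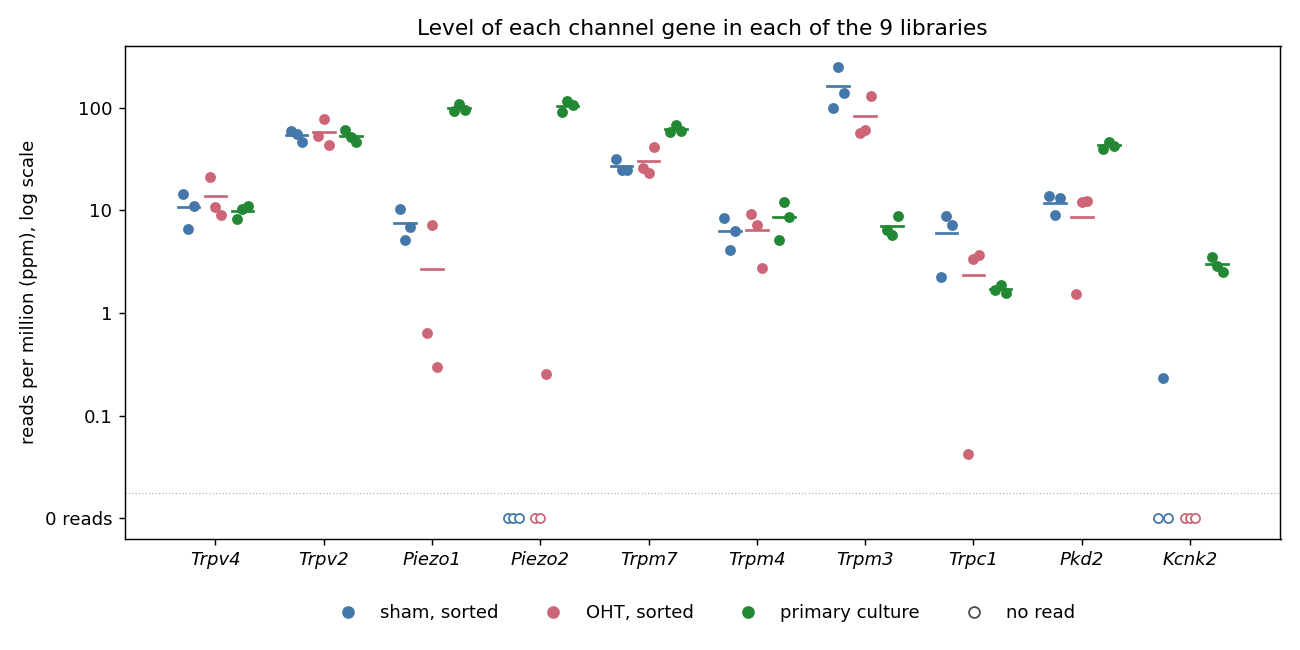
Level of the 10 channel genes in each of the 9 libraries (ppm, log scale, with libraries without a read set apart as open points); bars are group means where every library has a read. Piezo1, Piezo2, Trpm7, Pkd2 and Kcnk2 lie above all sorted libraries in culture, Trpm3 lies below, and Trpv4 and Trpv2 overlap.

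The sequences before the start sites of 3 channels are shown because these took the 3 courses above: Trpv4 overlapped between cultures and sorted cells, Piezo1 was higher and Trpm3 lower in culture. They come from RefSeq on GRCm38.p6, an older build than the mm39 in the submitters' processing notes, and 8 of 10 channels matched (not Piezo2 and Trpm4). Each line gives the 250 bases before the start, 5′ to 3′ on the strand of the gene, with matches to 4 motifs on either strand in capitals. The motifs were the GC box GGGCGG (in 32.7% of 32851 windows of this length), the TATA box TATAAA (12.4%), the AP-1 site TGANTCA (6.75%) and the TEAD site GGAATG (12.6%). No matches overlapped each other in these windows.
Trpv4, chr5:114658422-114658671, minus strand: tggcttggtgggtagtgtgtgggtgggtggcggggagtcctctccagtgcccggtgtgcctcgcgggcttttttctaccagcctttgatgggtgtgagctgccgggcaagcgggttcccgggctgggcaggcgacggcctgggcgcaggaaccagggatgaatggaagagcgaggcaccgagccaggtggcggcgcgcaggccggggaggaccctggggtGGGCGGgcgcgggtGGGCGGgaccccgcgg
Piezo1, chr8:122551330-122551579, minus strand: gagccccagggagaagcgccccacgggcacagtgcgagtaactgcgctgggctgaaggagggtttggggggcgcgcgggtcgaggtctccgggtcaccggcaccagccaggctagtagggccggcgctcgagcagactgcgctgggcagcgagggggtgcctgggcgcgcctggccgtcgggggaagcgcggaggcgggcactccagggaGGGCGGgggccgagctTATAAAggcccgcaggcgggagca
Trpm3, chr19:22138796-22139045, plus strand: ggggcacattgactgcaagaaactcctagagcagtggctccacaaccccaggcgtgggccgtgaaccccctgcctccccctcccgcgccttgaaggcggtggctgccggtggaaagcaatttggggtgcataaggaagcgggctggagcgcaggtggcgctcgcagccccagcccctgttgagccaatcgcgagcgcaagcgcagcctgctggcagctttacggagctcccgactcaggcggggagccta
The Trpv4 window holds 2 GC boxes and the Piezo1 window 1 GC box and 1 TATA box. The Trpm3 window, the more upstream of 2 listed starts, holds none of the 4 motifs. GC content was 72.0%, 74.0% and 66.4%, against a median of 52.4% over all windows. Which start the cells used is not known from gene counts, and a match is a string of letters, not a site shown to be bound.

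Trpm3 is the host gene of the microRNA miR-204, whose hairpin lies within it on the same strand (chr19:22750605-22750672, plus strand, GRCm38.p6). The mature 5p arm is shown, with the seed (bases 2 to 8) in capitals, because its gene has a row in the sorted table beside that of its host.
mmu-miR-204-5p: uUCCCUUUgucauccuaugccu
Mir204 had 5, 3 and 11 reads in sham and 1, 0 and 0 reads in OHT. The sham libraries were all above the OHT libraries, at depths where these counts fall under the filter of the test. The row was named after its values were seen. Reads of long RNA at the hairpin are no measure of the mature miRNA, and the gene was not listed in the culture table.

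The other genes of the pathway were followed through 4 lists, none of which had a gene called by limma or edgeR in OHT against sham. The 22 other TRP channels and polycystins had 13 genes in the sorted table and 7 tested, with 1 at an unadjusted p under 0.05 in limma (11.7% over all genes), 1 gene higher (9.26%) and 0 lower (9.18%) in OHT without overlap, and a median log2 difference of -0.37. The 3 genes of the highest mean normalised count over both groups were Mcoln1, the lysosomal calcium release channel (-0.37, SE 0.56, limma adjusted p 0.782), Trpm1, the channel of ON bipolar cells (1.19, SE 0.67, adjusted p 0.498), and Mcoln3, another endolysosomal channel. Mcoln3 reached this place through its OHT values: in sham it was at 5.59 ppm, below Trpm2 at 21.6 ppm and Pkd1 at 6.53 ppm. Mcoln3 was at 62.0, 0 and 646 normalised counts in sham and at 1284, 1735 and 922 in OHT, and so did not overlap. Its log2 difference was 5.21 (SE 1.76; exact permutation p 0.1; limma unadjusted p 0.0124, adjusted p 0.343), and the sham libraries alone spanned 0 to 646. On recovered reads the Mcoln3 difference was 2.39 in edgeR (adjusted p 0.552) and 2.48 in DESeq2 (adjusted p 0.629). In the cultures 3 of 13 genes of this list were higher than all sorted libraries and 3 lower, where the shares over all genes were 32.5% and 16.5%.

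The 12 other stretch or swelling activated channels had 7 genes listed and tested, with a median of -0.48, 1 at an unadjusted p under 0.05 in limma (11.7% over all genes), and 0 higher (9.26%) and 1 lower (9.18%) without overlap. The most abundant were Tmem63a, of a family of osmotically and mechanically gated channels (-0.18, SE 0.38, limma adjusted p 0.851), and the volume-regulated anion channel subunits Lrrc8a (0.86, SE 0.54, adjusted p 0.531) and Lrrc8d (-0.18, SE 0.44, adjusted p 0.878). In the cultures 3 of 7 were higher than all sorted libraries and 0 lower, beside 32.5% and 16.5% over all genes. Lrrc8d was at 207 ppm in the cultures and 30.1 ppm in sham.

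Channel partners and genes of store-operated calcium entry (14 genes, 13 listed and tested) had a median of -0.59, with 3 at an unadjusted p under 0.05 in limma, all lower (11.7% over all genes in either direction), and 0 higher (9.26%) and 4 lower (9.18%) without overlap. By abundance the first were Pacsin2, an adaptor of membrane curvature (-0.59, SE 0.35, limma adjusted p 0.510), and the store-operated channels Orai3 (-0.22, SE 0.52, adjusted p 0.869) and Orai1 (-0.07, SE 0.80, adjusted p 0.977). The 4 without overlap were Pacsin3, Tmem150c, Mdfi and Abcc8, named after their values were seen. Pacsin3, whose protein binds the TRPV4 amino terminus and modulates its gating, was at 690.1, 1302 and 1290 in sham and at 84.3, 378 and 522 in OHT. Its log2 difference was -2.03 (SE 0.71; exact permutation p 0.1; limma unadjusted p 0.0145, adjusted p 0.343). Tmem150c, which encodes tentonin 3, a membrane protein reported to prolong Piezo currents, was at 145, 976 and 727 in sham and 34.5, 87.3 and 80.9 in OHT. Its log2 difference was -2.88 (SE 0.90, limma unadjusted p 0.00818, adjusted p 0.332). DESeq2 called Tmem150c (-3.18, SE 0.77, adjusted p 0.00770), the only gene of the 4 lists that it called, while edgeR gave an adjusted p of 0.422. Over all genes DESeq2 called 1.80% of 13893 and edgeR 0%. In the cultures Pacsin3 was higher than in every sorted library (67.7 ppm, against 27.0 in sham and 7.89 in OHT) and Tmem150c lower (0.221 ppm, against 15.2 and 1.55). The rod marker sum stood beside these values at 2720, 25537 and 20628 ppm in sham and 936 to 3406 ppm in OHT, with all 12 rod markers above 0 in each sorted library. In Pacsin3, Tmem150c and the rod sum alike, sham replicate 1 was the lowest sham library. The same held for the astrocyte sum (72.6, 822 and 1315 ppm in sham) and the mural cell and fibroblast sum (119, 219 and 264 ppm). The endothelial and mural cell sums were also lower in OHT, with the limits given above. The part of any of these cell types in Pacsin3 and Tmem150c was not tested. Of this list 4 of 13 were higher in the cultures (32.5% over all genes) and 3 lower (16.5%).

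The 21 calcium effectors were all listed and tested, with a median of 0.06, 3 at an unadjusted p under 0.05 in limma (1 higher and 2 lower, 11.7% over all genes), and 1 higher (9.26%) and 2 lower (9.18%) without overlap. Among the most abundant were Calm2, a calmodulin gene (0.73, SE 0.40, limma adjusted p 0.489), and Ppp3ca, the calcineurin catalytic subunit (0.06, SE 0.36, adjusted p 0.953). In the cultures 5 of 21 were higher than all sorted libraries (32.5% over all genes) and 4 lower (16.5%).

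**Figure D5:**
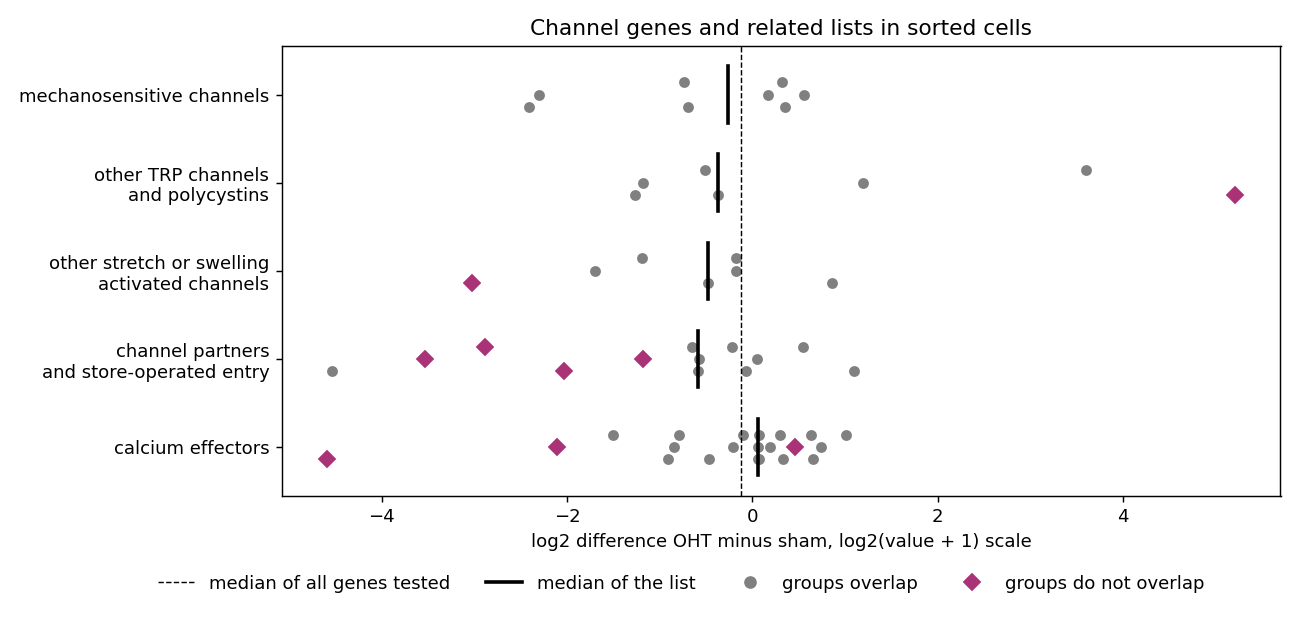
Log2 difference of OHT minus sham, on the log2(value + 1) scale, for the tested genes of the mechanosensitive channels and of 4 related lists; diamonds are genes whose groups do not overlap, thick bars the list medians and the dashed line the median of all genes (-0.12). The 4 diamonds among the channel partners all lie below 0, and the mechanosensitive channels have none.

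The genes most like 3 of the channels over the 6 sorted libraries were named by Pearson's r of log2 values among 11475 genes with a mean of at least 100. For Trpv4 they were Brpf1 (0.992), Rpap3 (0.992) and Nus1 (0.991), all highest in OHT replicate 1. For Trpv2 they were Nmral1 (0.989), Hmg20b (0.984) and Tor2a (0.982). Piezo1 was most like Tpst1 (0.996), Tamalin (0.994) and B3gnt2 (0.992), each lowest in OHT replicates 3 and 1. Tamalin, for example, was at 288, 220.5 and 257 in sham and at 30.4, 266 and 9.62 in OHT. These are the highest of 11475 values, each over 6 libraries that share depth and amplification with the channel itself, and they say nothing of shared function.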

How the data were processed

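The signal values that the authors deposited, in a table for sorted cells and another for cultures, are normalised gene counts. Per the deposited values, all counts of a library were scaled by the same factor: dividing by the smallest step gave whole reads for 100% of values (tolerance 0.05 reads), although in culture replicate 3 the step is too near 1 to serve as a check. Per the labels' protocols, cDNA was made and amplified with a low-input template-switching kit and sequenced as 150 bp pairs. The submitters' processing notes name bcl2fastq 2.20, Trim Galore 0.6.6, FastQC 0.11.9, STAR 2.7.1a and mm39, without their roles. The counting and normalization tools, the annotation and the use of strand were not given in the sources used here. Reads of overlapping genes therefore cannot be told apart.

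OHT and sham were compared with limma 3.58.1 (eBayes with trend, R 4.3.3) on log2(value + 1), for the 14403 genes whose mean over the 6 libraries reached 10. Benjamini-Hochberg adjustment was over all of them, with a threshold of 0.05. The added 1 shrinks changes of low genes, but the limma differences were not all the smaller ones. In size they exceeded those of both edgeR and DESeq2 for Piezo1, Trpc1 and Pkd2. They were below both for Trpv4, Trpv2, Trpm4 and Trpm3, and between them for Trpm7. edgeR 4.0.16 (quasi-likelihood) and DESeq2 1.42.0 were run on recovered reads. The limma fit was tested on simulated counts, and the edgeR and DESeq2 fits were not. Levels across the tables are reads per 1e6 reads of a library (ppm). Transcript lengths came from GENCODE M21 (GRCm38), which covered 96.2% of tested genes. Ratios to marker sums were computed in Python 3.11.15.

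The channels and lists were chosen with earlier results of these data known. Named genes are the 10 channels, the 3 of highest mean in each other list, and the 3 most like Trpv4, Trpv2 and Piezo1; others are said to be named after their values were seen. A gene that this rule names among the calcium effectors is not reported here. All columns belonged to a sample. Alternatives covered pseudocounts of 0.5 and 10, filters, TMM and quantile scaling, a replicate block, rod and microglia covariates, a GC and length correction (splines with 4 degrees of freedom), other totals, and leaving out each library.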

Additional observations from a re-analysis of the deposited data

How the results depend on the processing

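None of the channels was called in any of 18 alternatives to the comparison of OHT with sham. Over all genes limma called 0 with all libraries, 2 with the replicate block, and 0 to 12 when single libraries were left out (12 without sham replicate 1 and 7 without sham replicate 3). DESeq2 called 250 (54 higher and 196 lower, with 510 given no adjusted p). The labels do not say whether same-numbered libraries belong together. Their deviations from the group means had r of 0.064, -0.047 and -0.056, beside -0.089 to 0.146 for libraries of unlike number. With 3 libraries in a group such values cannot decide the question. Piezo1 and Trpm7 kept their sign in 18 of 18 alternatives, and the others in 14 to 17. With the rod covariate the log2 difference turned for Trpv4 (-0.16), Trpv2 (-0.14), Trpm4 (-0.84) and Trpm3 (0.15), and with the microglia covariate for Trpv4 (-0.36), Trpv2 (-0.069), Trpm4 (-0.84), Trpc1 (0.25) and Pkd2 (0.022); the cause was not tested. Leaving out single libraries gave -0.040 to 0.98 for Trpv4, -0.40 to 0.86 for Trpm4 and -1.12 to 0.068 for Pkd2. In an alternative chosen after seeing the data, it gave 0 to 1 channels above all sham libraries (Trpm7 without OHT replicate 2, Trpv2 without OHT replicate 3) and 0 to 2 below (Trpm3 and Trpc1 without sham replicate 1, Pkd2 without sham replicate 2, Piezo1 without OHT replicate 2, Trpm3 without OHT replicate 3), where 10.8% to 18.02% and 11.4% to 18.6% of all genes did so. Quantile scaling moved the median of all genes from -0.12 to 0.01. The channels higher in cultures stayed at 5 under other totals and without single libraries, and those lower went from 1 to 2 without OHT replicate 1.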
